A study of Mus musculus with 8 samples.

Results

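Transcripts of 9 cation channel genes were followed in mouse atria in which the chromatin remodeller gene Chd4 had been targeted. The 9 genes are Trpc1, Trpc6, Trpm4, Trpm7, Trpv2 and Trpv4 of the transient receptor potential (TRP) family, the mechanically gated channels Piezo1 and Piezo2, and Pkd2, which encodes polycystin-2. They were taken by symbol from a table of 54532 genes, and each symbol stood on 1 row. All samples were whole right and left atria of Chd4flox/flox mice, labelled as mixed in cell type. An AAV9 vector injected at postnatal day 2 carried either Cre (AAV9:Nppa-Cre, the KO group, 4 libraries) or EGFP (AAV9:Nppa-EGFP, the control group, 4 libraries). The Nppa promoter is that of atrial natriuretic peptide and drives expression in atrial muscle, so Cre was aimed at cardiomyocytes while the RNA came from all atrial cells. Since the groups differ in both Cre and EGFP, effects of either protein and of losing Chd4 cannot be told apart. Age at collection was not given in the sources used here.

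TRP channels are tetramers that let sodium, calcium or both into the cell when lipids, calcium, heat or mechanical strain open them. Piezo channels are very large trimers that open directly when the membrane is stretched. In the heart these proteins are studied as routes by which stretch and receptor signals reach calcium-dependent enzymes and the membrane potential, and the atrial wall is a site where stretch is sensed.

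The libraries held 34002292 to 40588007 counts. Chd4 fell in KO, with 169 to 200 CPM (counts scaled to library size with edgeR's TMM factors) in the 4 KO libraries and 278 to 308 CPM in the 4 controls (log2 fold change -0.66, SE 0.06, adjusted p = 1.86e-05, edgeR's quasi-likelihood test). KO 2 and controls 1 and 2 had under 1 CPM of the Y-linked gene Ddx3y and the other 5 libraries had 105 to 124 CPM, so libraries without it made up 1 of 4 KO and 2 of 4 control libraries. No name prefix is shared between the groups, so a prefix effect and the group cannot be told apart. Of the cardiomyocyte markers, Myh6, Tnnt2 and Ryr2 were abundant in every library, as the tissue label says.

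In the KO atria Trpm4 and Trpc1 fell, Piezo1 and Trpv2 rose, and 5 of the 9 genes were not called. Trpm4 fell to 58.0% of its control level and Trpc1 to 76.6%, while Piezo1 reached 129% and Trpv2 152%. All 9 genes passed the filter on low counts. The threshold for a call was an adjusted p below 0.05 across 18033 genes, and 27.9% of all genes were called, 14.8% as higher and 13.1% as lower. Of all calls 53.2% were higher, and 70.1% with scaling by library total alone. Among the channel genes 4 of 9 were called, beside that background. The same 4 genes had KO and control ranges that did not overlap, which was so for 29.2% of all genes tested. The median log2 fold change of the 9 genes was 0.18, and that of all tested genes was 0.01. Per kilobase of exon, the 9 genes summed to 38.5 to 42.2 RPKM in KO against 36.5 to 40.6 RPKM in control, ranges that overlapped.

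For orientation on these genes, the 250 bases before the annotated start are shown for the called members with a RefSeq window (build GRCm38.p6), in lower case, with any T-box core in capitals. The T-box core is the shared heart of sites bound by TBX5, the factor that the study's title pairs with CHD4. It was searched as AGGTGT and its reverse complement ACACCT. Windows of 7 of the 9 genes were read, without Trpm4 and Piezo2. Of these genes Trpv2 alone held the core, 84 bases before its first annotated start. Trpv2 was also read before later starts, and its window at chr11:62575377-62575626 lacked the core. Among 32851 RefSeq windows of the same length, 11.8% held the T-box core. The GATA core (AGATAA) and the TEAD core (GGAATG) were searched too. No window read held the GATA core, and the TEAD core was in the Pkd2 window and in that later Trpv2 window. A match is a stretch of letters and not a measured site. The Piezo1 and Trpc1 windows contrast in base content with the window before the first Trpv2 start. They have 26 and 17 CpG dinucleotides against 2 (median over all windows 6) and 74.0% and 62.8% G or C against 53.2%.
Trpv2, chr11:62574236-62574485, plus strand: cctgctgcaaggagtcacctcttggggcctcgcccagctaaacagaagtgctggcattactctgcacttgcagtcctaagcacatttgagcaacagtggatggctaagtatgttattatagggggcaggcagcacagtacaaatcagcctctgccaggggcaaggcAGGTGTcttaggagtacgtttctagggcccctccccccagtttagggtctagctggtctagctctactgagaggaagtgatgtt
Piezo1, chr8:122551330-122551579, minus strand: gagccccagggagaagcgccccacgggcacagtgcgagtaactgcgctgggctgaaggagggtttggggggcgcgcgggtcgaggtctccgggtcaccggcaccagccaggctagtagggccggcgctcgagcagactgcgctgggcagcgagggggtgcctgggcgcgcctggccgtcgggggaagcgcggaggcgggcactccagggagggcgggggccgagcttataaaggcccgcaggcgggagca
Trpc1, chr9:95750349-95750598, minus strand: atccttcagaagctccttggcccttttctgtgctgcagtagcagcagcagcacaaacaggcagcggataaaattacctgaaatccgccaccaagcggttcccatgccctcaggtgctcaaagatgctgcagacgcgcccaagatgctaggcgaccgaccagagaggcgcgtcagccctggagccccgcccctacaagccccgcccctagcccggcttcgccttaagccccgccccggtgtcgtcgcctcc

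**Figure D1:**
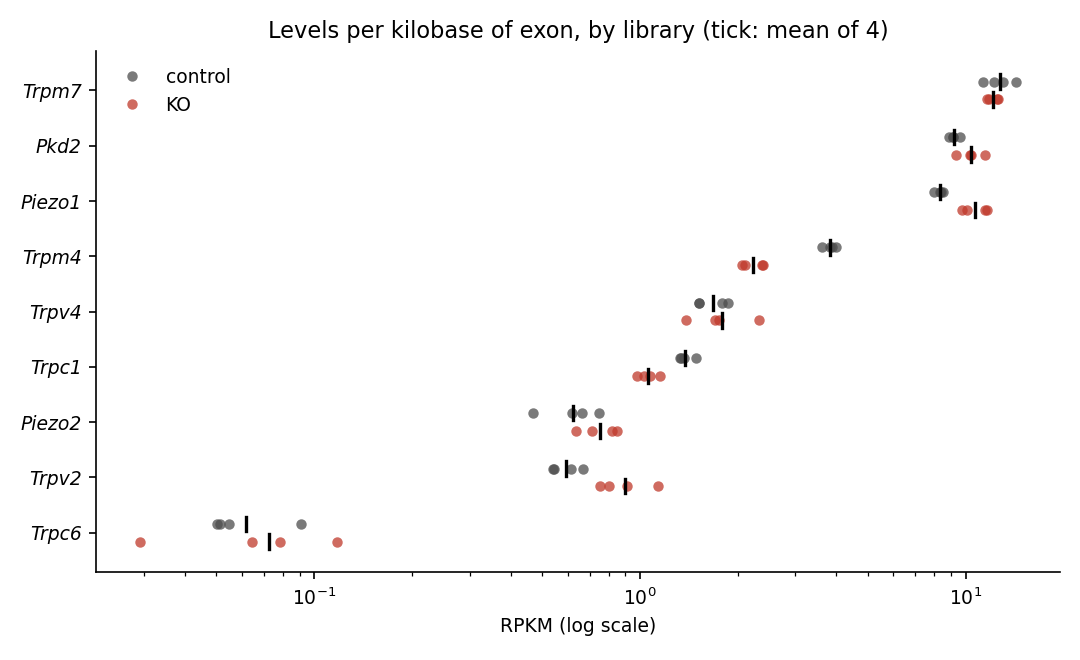
RPKM (CPM per kilobase of merged exons, log scale) of each channel gene in the 4 control and 4 KO libraries; points are libraries and ticks are means. Trpm7, Pkd2 and Piezo1 lie at 8.01 RPKM or above in every library and Trpc6 lies at 0.118 RPKM or below in every library.

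Levels of different genes were compared per kilobase of exon. In control atria Trpm7 was the highest at 12.7 ± 1.25 RPKM (SD, n = 4), followed by Pkd2 at 9.18 ± 0.288 and Piezo1 at 8.31 ± 0.216. Trpm4 came next at 3.84 ± 0.159 RPKM, then Trpv4 at 1.67 ± 0.178 and Trpc1 at 1.38 ± 0.0748. Piezo2 at 0.624 ± 0.117 RPKM and Trpv2 at 0.591 ± 0.0601 had overlapping ranges, and Trpc6 was lowest at 0.0618 ± 0.0194. By merged exons, every other pair of neighbours in this order had ranges that did not overlap. The top gene Trpm7 was 206 times as high as Trpc6 and 20.4 times as high as Piezo2. With the length of the longest transcript in place of merged exons, Trpc1 had rank 5 and Trpv4 rank 6, and the other control ranks were as given.

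In KO atria the order changed in the upper and lower ranks. Piezo1 had rank 2 at 10.7 ± 0.945 RPKM (SD, n = 4) and Pkd2 rank 3 at 10.4 ± 0.886 RPKM, with overlapping ranges. Trpm4 and Trpv4, separate in control, overlapped in KO at 2.23 ± 0.169 and 1.79 ± 0.387 RPKM. Trpv2, at 0.901 ± 0.171 RPKM, stood above Piezo2, at 0.753 ± 0.0987 RPKM, again with overlapping ranges. With the longest transcript as length, the KO order began with Pkd2, Trpm7 and Piezo1, and Piezo2 stood above Trpv2. Piezo1 took 24.8% to 28.6% of the summed RPKM of the 9 genes in KO and 20.5% to 22.2% in control. Trpm4 took 4.89% to 6.03% in KO and 9.59% to 10.7% in control. The ratio of Piezo1 to Trpm4 in RPKM ran from 4.12 to 5.62 in KO against 2.06 to 2.32 in control.

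**Figure D2:**
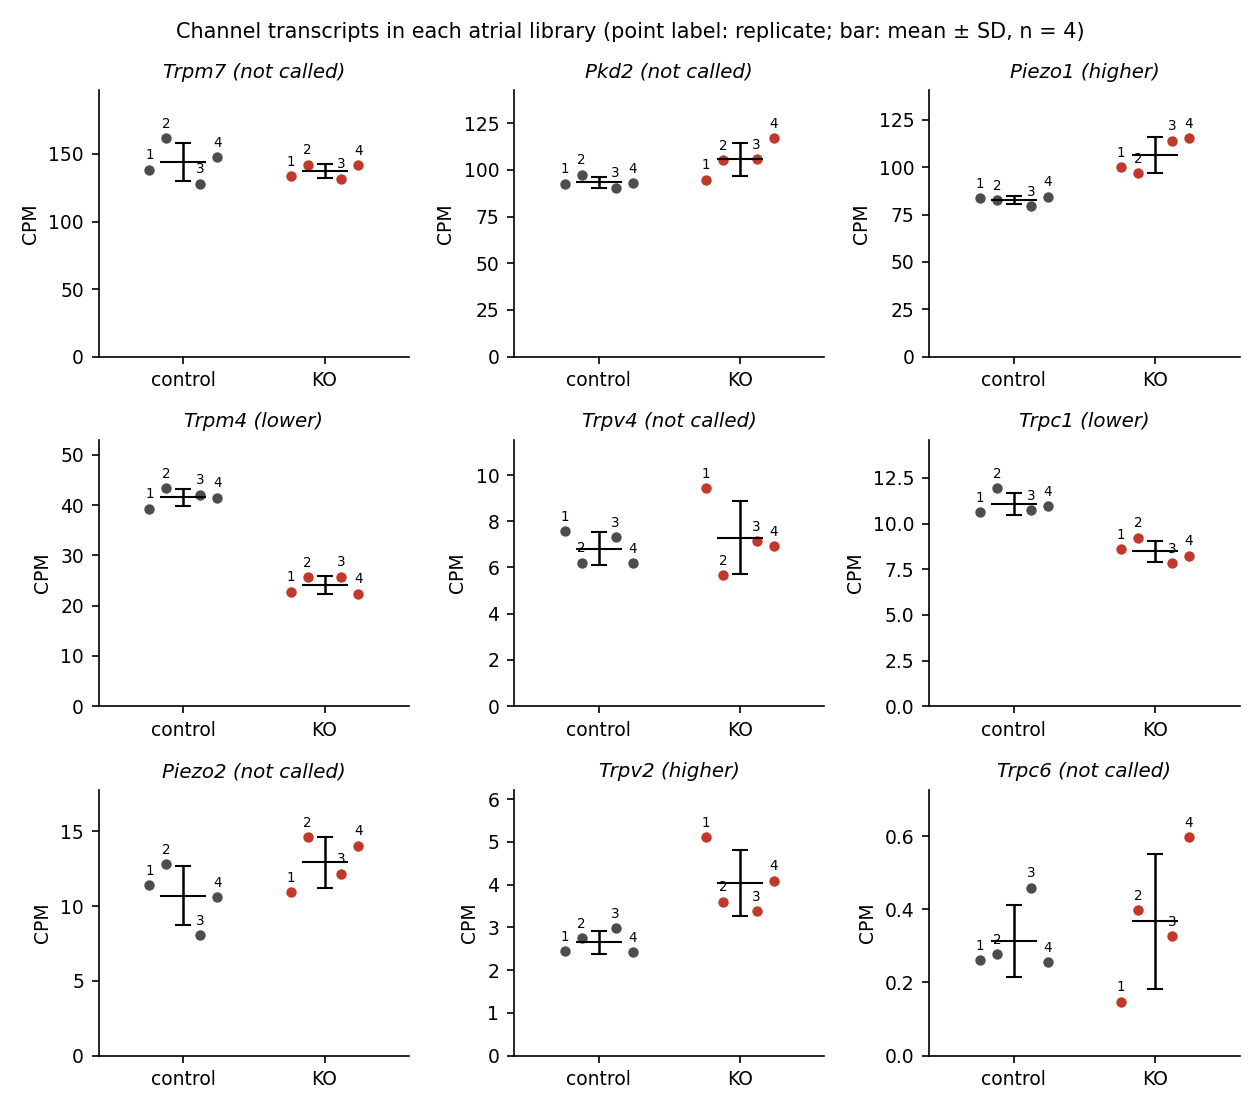
CPM of each channel gene by library, control in grey and KO in red, with the replicate number at each point and the mean ± SD (n = 4). The groups do not overlap for Piezo1, Trpm4, Trpc1 and Trpv2, and overlap for the other 5 genes.

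The TRPM genes encode channels with long cytoplasmic ends. Trpm4 (ENSMUSG00000038260, chromosome 7, 45302632 to 45333780, minus strand, GRCm38) encodes a channel that calcium opens from inside and that passes sodium and potassium but hardly any calcium, and it is found in atrial muscle and the conduction system. Its CPM was 22.7, 25.6, 25.7 and 22.3 in KO 1 to 4 and 39.3, 43.4, 42.1 and 41.5 in controls 1 to 4. The highest KO library was thus well under the lowest control. Trpm4 fell by 0.78 on the log2 scale (SE 0.07, 95% interval -0.95 to -0.62, adjusted p = 8.48e-06, edgeR). The call held under all 19 alternative settings, with log2 fold changes of -0.82 to -0.70.

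Trpm7 (ENSMUSG00000027365, chromosome 2, 126791565 to 126876230, minus strand) encodes a channel fused to a protein kinase that carries magnesium, calcium and zinc and is expressed in most cells. Its CPM was 134, 142, 132 and 142 in KO 1 to 4 and 138, 161, 128 and 147 in controls 1 to 4. The KO values lay inside the control range. Trpm7 was not called (log2 fold change -0.07, 95% interval -0.24 to 0.11, adjusted p = 0.52), and its interval spans 0.845-fold to 1.08-fold of control. With scaling by library total alone its sign turned, to 0.01.

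The TRPC genes encode channels opened downstream of phospholipase C, often as mixed tetramers. Trpc1 (ENSMUSG00000032839, chromosome 9, 95705082 to 95750375, minus strand) encodes a subunit that mostly works in such mixtures. Its CPM was 8.61, 9.23, 7.84 and 8.24 in KO 1 to 4 and 10.6, 11.95, 10.7 and 10.9 in controls 1 to 4, without overlap. Trpc1 fell by 0.38 on the log2 scale (SE 0.09, 95% interval -0.61 to -0.16, adjusted p = 0.00888, edgeR). The call was lost against controls 3 and 4 alone (adjusted p = 0.0503) and among the 5 libraries with Ddx3y (adjusted p = 0.0795), with log2 fold changes of -0.38 and -0.40.

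Trpc6 (ENSMUSG00000031997, chromosome 9, 8544142 to 8680741, plus strand) encodes a channel that diacylglycerol opens directly, studied in fibroblasts and smooth muscle. It held 5, 16, 12 and 22 counts in KO 1 to 4 and 10, 11, 18 and 10 counts in controls 1 to 4. Its level, 0.367 ± 0.185 CPM in KO and 0.313 ± 0.0982 CPM in control (SD, n = 4), was not called (log2 fold change 0.24, adjusted p = 0.716). The interval of 0.577-fold to 2.40-fold is the widest of the 9 genes, and these counts do not tell apart the changes inside it.

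Trpv2 and Trpv4 belong to the vanilloid subfamily. Trpv2 (ENSMUSG00000018507, chromosome 11, 62574486 to 62600515, plus strand) encodes a calcium-permeable channel known from macrophages, neurons and the intercalated discs of heart muscle. Its CPM was 5.10, 3.60, 3.38 and 4.09 in KO 1 to 4 and 2.44, 2.75, 2.99 and 2.42 in controls 1 to 4. KO 1 was highest, and the lowest KO library was above the highest control. Trpv2 rose by 0.61 on the log2 scale (SE 0.17, 95% interval 0.20 to 1.02, adjusted p = 0.0187, edgeR). It rested on 593 counts in KO and 415 in control, and the call was lost without control 1 (adjusted p = 0.0558), without control 4 (0.0572), against controls 1 and 2 alone (0.0785), against controls 3 and 4 alone (0.112) and among the libraries with Ddx3y (0.112). The log2 fold changes in these 5 settings were 0.57, 0.56, 0.62, 0.56 and 0.63.

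Trpv4 (ENSMUSG00000014158, chromosome 5, 114622152 to 114658421, minus strand) encodes a calcium-permeable channel opened by cell swelling and by arachidonic acid products, studied in endothelium and fibroblasts. Its CPM was 9.44, 5.66, 7.14 and 6.91 in KO 1 to 4 and 7.57, 6.20, 7.30 and 6.19 in controls 1 to 4. KO libraries were both the highest and the lowest of the 8. Trpv4 was not called (log2 fold change 0.09, 95% interval -0.28 to 0.47, adjusted p = 0.687), and its sign turned without KO 1 (-0.06) and in limma-voom with quality weights (-0.01).

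Piezo1 (ENSMUSG00000014444, chromosome 8, 122481698 to 122551329, minus strand) encodes the stretch-gated channel of endothelium, fibroblasts and many other cells. Its CPM was 100.05, 96.8, 114 and 115 in KO 1 to 4 and 83.5, 82.7, 79.5 and 84.5 in controls 1 to 4. The controls spanned a narrow range that lay wholly under the KO values. Piezo1 rose by 0.37 on the log2 scale (SE 0.07, 95% interval 0.21 to 0.53, adjusted p = 0.00152, edgeR), and the call held under all 19 alternatives, with log2 fold changes of 0.33 to 0.45. Exons of Ctu2, a tRNA-modifying enzyme gene on the opposite strand, overlap 24.6% of the Piezo1 exon length, and the strand setting of the counting was not given in the sources used here. Ctu2 held 915 counts in KO and 1154 in control against 15724 and 12924 for Piezo1, and was not called (log2 fold change -0.25, adjusted p = 0.141).

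Piezo2 (ENSMUSG00000041482, chromosome 18, 63010213 to 63387183, minus strand) encodes the channel of touch and body position in sensory neurons. Its CPM was 10.9, 14.6, 12.2 and 14.0 in KO 1 to 4 and 11.4, 12.8, 8.04 and 10.6 in controls 1 to 4, with overlap. Piezo2 was not called (log2 fold change 0.27, 95% interval -0.07 to 0.62, adjusted p = 0.178). The control libraries carry 2 name prefixes, 1 for controls 1 and 2, which were under 1 CPM of Ddx3y, and 1 for controls 3 and 4, which were at 105 CPM or above, so prefix and Ddx3y level cannot be told apart. For Piezo2 these pairs differed more than those of the other genes except Trpc6, with 12.1 CPM in controls 1 and 2 and 9.32 CPM in controls 3 and 4. The log2 fold change was 0.08 against the first pair alone and 0.45 against the second, and with Ddx3y as a covariate it was 0.36 (edgeR adjusted p = 0.0506).

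Pkd2 (ENSMUSG00000034462, chromosome 5, 104459450 to 104505819, plus strand) encodes polycystin-2, a channel of the endoplasmic reticulum and primary cilium that works with polycystin-1 and is mutated in polycystic kidney disease. Its CPM was 94.7, 105, 106 and 117 in KO 1 to 4 and 92.7, 97.4, 90.5 and 92.8 in controls 1 to 4. KO 1 lay inside the control range and the other KO libraries above it. Pkd2 missed the threshold (log2 fold change 0.18, 95% interval before adjustment 0.02 to 0.34, adjusted p = 0.0637), and was called without KO 1 (0.0138), by limma-voom (0.0189) and with scaling by library total alone (0.0159).

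**Figure D3:**
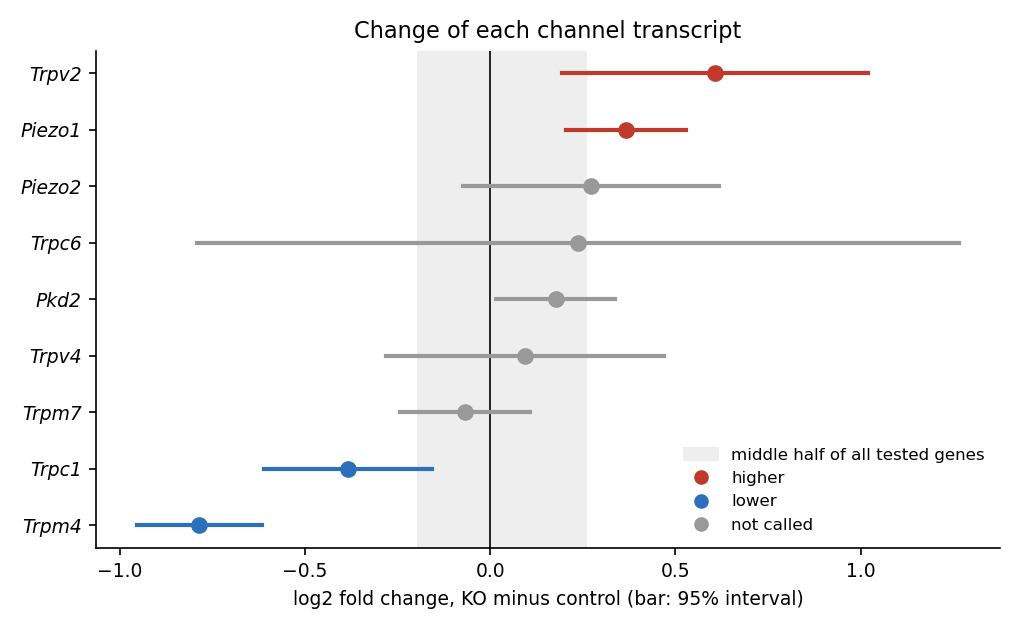
Log2 fold change (KO minus control) of the 9 channel genes with 95% intervals before adjustment; red and blue mark genes called higher and lower, grey those not called, and the shaded band runs from -0.19 to 0.26, the interquartile range of all tested genes. Trpm4 and Trpc1 lie to the left of the band, and Trpv2, Piezo1 and, at 0.27 and not called, Piezo2 to the right.

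The profiles most like those of Piezo1 and Trpm4, the members with the smallest p in each direction, were sought among 14545 genes that averaged 1 CPM or more. The measure was the root mean square distance between log2 CPM values, each centred on the gene's mean over the 8 libraries. Nearest to Piezo1 were Npr2, a natriuretic peptide receptor gene (distance 0.04), Sidt2, a lysosomal membrane protein gene (0.05), and Gtf3c1, of the RNA polymerase III factor TFIIIC (0.05). Their log2 fold changes were 0.42, 0.38 and 0.38, near that of Piezo1 by the way they were chosen, so no test is given. Nearest to Trpm4 were Mtrr, the methionine synthase reductase gene (0.05), Cdkn2aipnl (0.06) and Slc20a2, a phosphate transporter gene (0.06). Their log2 fold changes, likewise set by the choice, were -0.75, -0.69 and -0.68. Npr2 and Sidt2 share exon sequence with antisense genes and Slc20a2 with Smim19, on the opposite strand.

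Of 21 further TRP superfamily genes, 10 were tested, 2 rose and 1 fell, with a median log2 fold change of 0.27. This and the counts of the lists that follow stand beside the 27.9% called among all genes, and 3 of 10 is near that share. Among those that rose was Mcoln3, which encodes the endolysosomal channel mucolipin-3. It had 1.09, 0.571, 0.790 and 1.00 CPM in KO 1 to 4 and 0.104, 0.025, 0.128 and 0.025 CPM in controls 1 to 4 (log2 fold change 3.55, SE 0.47, adjusted p = 0.000178, edgeR). Controls 2 and 4 lie under the 0.0744 to 0.0885 CPM that 3 counts are worth, so the size of this fold depends on the prior count of the fit. Mcoln3 passed the filter on low counts through the KO libraries, so a gene with these levels had to differ to be tested. It is 1 of the 2 that rose, and the count and median of this list include it. Trpm6, the sister gene of Trpm7 and a magnesium channel kinase of kidney and gut, went from 1.71 ± 0.164 to 3.33 ± 0.362 CPM, a 1.95-fold rise (adjusted p = 0.000982). Mcoln1, the lysosomal channel mucolipin-1, averaged 29.0 ± 1.66 CPM in KO against 36.4 ± 2.28 CPM and so fell by 0.33 on the log2 scale (adjusted p = 0.00368). Its call did not hold among the 5 libraries with Ddx3y (0.058), where the log2 fold change was -0.30. The oxidant-gated channel gene Trpm2 averaged 0.939 ± 0.218 CPM in KO against 0.523 ± 0.193 CPM in control (adjusted p = 0.0686), and was called in 3 of 18 alternatives. The 11 genes with too few counts to test, among them Trpv1, Trpa1, Trpm8 and Trpc5, had group means of at most 0.323 CPM, the KO mean of Trpm5.

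Of 13 other channels gated by stretch or swelling, 10 were tested, 2 rose and 3 fell, with a median of 0.03. Tmem63b, of a family of mechanically gated channels, fell by 0.48 on the log2 scale from 61.9 ± 2.32 to 44.5 ± 2.25 CPM (adjusted p = 8.99e-05, edgeR), and 2.1% of its exon length overlaps Mrpl14 and 5.6% an antisense gene, both on the other strand. The stretch-activated potassium channel genes Kcnk2 (TREK-1) and Kcnk4 (TRAAK) fell by 0.78 and 0.96 on the log2 scale (adjusted p = 0.0108 and 0.0176), from 1.90 to 1.10 CPM and from 0.830 to 0.424 CPM. Catsperz, on the same strand, overlaps 13.1% of the Kcnk4 exon length and held 78 counts in KO and 195 in control; its part in the fall of Kcnk4 was not tested. Kcnk2 shares exon sequence with an antisense gene. The call was lost in 5 of 18 alternatives for Kcnk4 and in 2 of 19 for Kcnk2. Lrrc8e, a subunit of the swelling-activated anion channel, had 1.45, 0.819, 1.39 and 0.515 CPM in KO 1 to 4. In controls 1 to 4 it had 0.130, 0.076, 0.077 and 0.051 CPM (log2 fold change 3.59, adjusted p = 0.000136, edgeR). These control levels were again near 3 counts, so the size of the fold depends on the prior count. Lrrc8e was tested through its KO libraries and so had to differ to be tested, and it is 1 of the 2 that rose. Its relative Lrrc8b rose by 0.31 on the log2 scale, and Lrrc8a, Lrrc8c and Lrrc8d were not called.

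Of 17 genes for channel partners and store-operated calcium entry, 16 were tested, 5 rose and 4 fell, with a median of 0.07. Abcc8, whose product SUR1 is a subunit of atrial KATP channels and a reported partner of TRPM4, fell by 0.88 on the log2 scale, beside the fall of Trpm4. It had 152, 139, 145 and 135 CPM in KO 1 to 4 and 249, 269, 248 and 287 CPM in controls 1 to 4 (adjusted p = 2.25e-06, edgeR). Abcc9, its relative SUR2, rose 1.38-fold (adjusted p = 0.0469, edgeR). Its ranges overlapped, at 80.2 to 127 CPM in KO and 60.1 to 89.1 CPM in control. Homer1, a scaffold gene, fell by 0.78 on the log2 scale while Homer2 and Homer3 rose by 0.37 and 0.59. Ddx49, on the other strand, overlaps 25.4% of the Homer3 exon length and held 3053 counts in KO and 3800 in control. Mdfic, which encodes an auxiliary subunit of Piezo channels, rose by 0.26 (adjusted p = 0.0193) and its relative Mdfi fell by 0.27 (adjusted p = 0.0335). Stim1, the calcium sensor of the endoplasmic reticulum, rose by 0.44 (adjusted p = 0.000305), and Orai1, Orai2 and Orai3, the channels it opens, were not called. Pkd1, the partner of Pkd2, averaged 167 ± 26.1 CPM in KO against 162 ± 22.8 CPM in control (adjusted p = 0.806).

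Of 16 genes of Gq and phospholipase C signalling, which opens TRPC channels, all were tested, 7 rose and 3 fell, with a median of -0.05. Of the 5 receptor genes in the list 3 fell: Agtr1a (angiotensin II), Ednra (endothelin) and Adra1b (noradrenaline) fell by 0.91, 0.68 and 0.65 on the log2 scale (adjusted p = 3.34e-05, 0.000335 and 9.05e-05, edgeR). The receptor genes Ednrb (-0.14, adjusted p = 0.36) and Adra1a (-0.45, adjusted p = 0.428) were not called. Ednra shares 1.7% of its exon length with an antisense transcript gene. Among those that rose were the inositol trisphosphate receptor genes Itpr1, Itpr2 and Itpr3, by 0.42, 0.51 and 0.38 on the log2 scale, and Plcb1, by 0.82. Plcg2, a phospholipase of immune cells, went from 10.3 ± 1.66 to 25.5 ± 1.52 CPM, a 2.48-fold rise (edgeR adjusted p = 5.11e-06).

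Of 13 calcineurin and NFAT genes, which act downstream of calcium entry, all were tested, 3 rose and 1 fell, with a median of 0.05, and 4 of 13 is again near the 27.9% of all genes. Nfatc2 rose by 0.60 on the log2 scale from 24.3 ± 3.88 to 36.7 ± 3.49 CPM (adjusted p = 0.0024, edgeR). The calcineurin inhibitor gene Cabin1 and the catalytic subunit gene Ppp3ca rose by 0.32 and 0.22 (adjusted p = 0.00479 and 0.00517, the call of Ppp3ca lost in 3 of 19 alternatives), and Rcan3, a regulator of calcineurin, fell by 0.32 (0.00594). Rcan1, often used as a readout of calcineurin activity, averaged 62.35 ± 11.0 CPM in KO against 61.9 ± 6.06 CPM in control (adjusted p = 0.962).

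**Figure D4:**
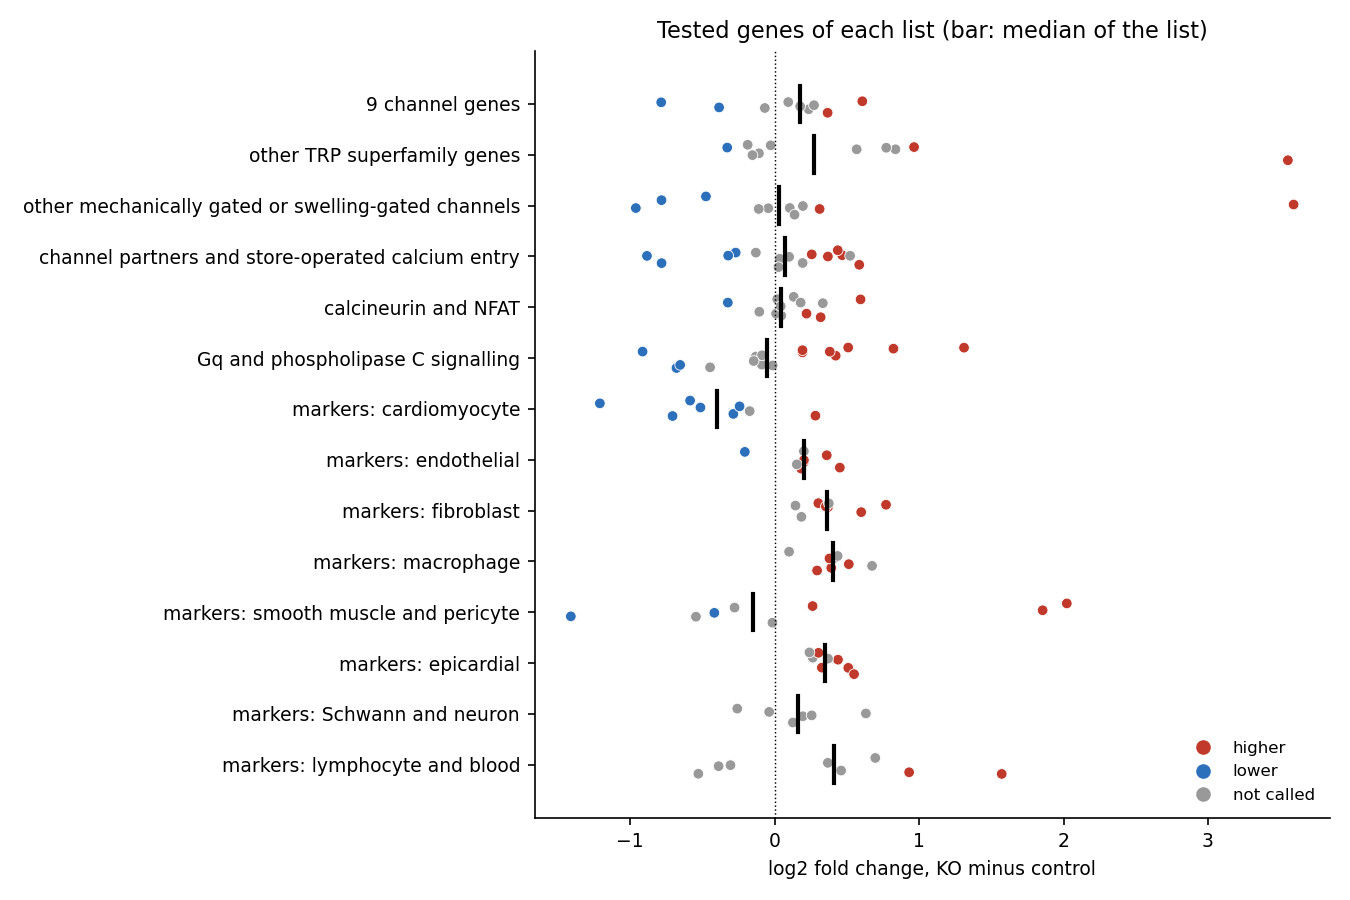
Log2 fold change (KO minus control) of the tested genes of each list, with channel and pathway lists above the cell type markers; points are genes, coloured by call, and bars are list medians. Cardiomyocyte markers have the lowest median, -0.40, and lymphocyte and blood markers the highest, 0.415. In the latter list 2 of 8 were called higher, and Hba-a1, Hbb-bs and Alas2 have negative values. Macrophage markers are at 0.406 and the channel genes at 0.18.

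Cell type markers also moved, and in bulk tissue fewer cells of a type and less RNA of a marker per cell cannot be told apart. Among cardiomyocyte markers 6 of 8 fell and 1 rose, with a median log2 fold change of -0.40. Their summed level was 43490 to 55460 CPM in KO and 67020 to 74040 CPM in control. These markers ran from -1.21 (Myl7) to 0.28 (Pln). Among endothelial markers 5 of 8 rose and 1 fell (median 0.20, summed 1928 to 2227 against 1696 to 1837 CPM). Fibroblast markers rose in 5 of 8 cases (median 0.36, 7164 to 9446 against 6134 to 6852 CPM). Of 8 macrophage markers 4 rose (median 0.41, 301 to 401 against 247 to 309 CPM), and of 8 epicardial markers 5 rose (median 0.35, 763 to 933 against 574 to 753 CPM).

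Smooth muscle and pericyte markers were mixed, with 3 of 8 higher and 2 lower (359 to 500 against 467 to 731 CPM). Of 8 lymphocyte and blood markers 2 rose, Cd3e and Ptprc (summed 700.1 to 1729 against 939 to 1733 CPM). Of 8 Schwann cell and neuron markers none was called, by edgeR, among the 6 tested (24.1 to 26.7 against 19.9 to 31.6 CPM), and 1 of them, S100b, had an unadjusted p under 0.05 (0.0312 in edgeR). The neuronal gene Th was near 0, with a KO mean of 0.239 CPM against 0.102 CPM. No marker was at 0 in every library. The part of these shifts in the changes of the channel genes was not tested.

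**Figure D5:**
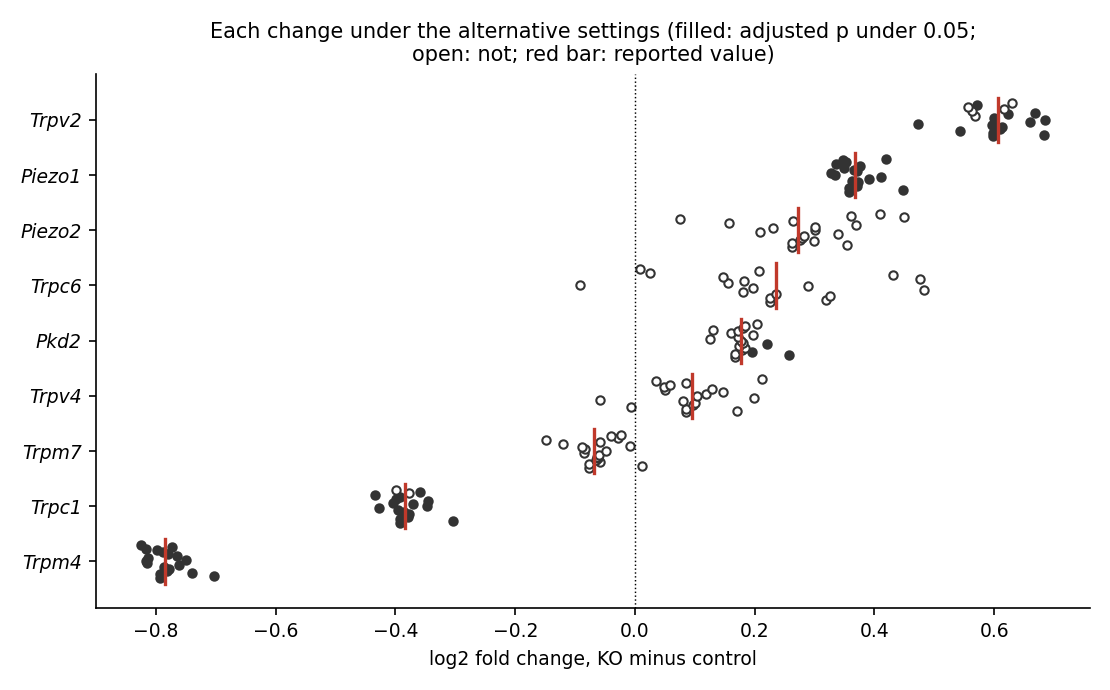
Log2 fold change (KO minus control) of each channel gene under the alternative settings; filled points have an adjusted p under 0.05, open points do not, and the red bar is the reported value. Trpm4 and Piezo1 are filled in all 19 settings, and Trpv4, Trpc6 and Trpm7 lie on both sides of 0.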

How the data were processed

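Polyadenylated RNA of 8 atrial samples was sequenced, per the labels' protocols. The deposited values are whole-number read counts per gene and library, not normalised. STAR, DESeq2 and mm10 are named in the submitters' processing notes; the counter, its strand setting and the annotation are not given in the sources used here. Samples were matched to columns by vector and number. Gene coordinates are from GENCODE M21.

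Counts were fitted with edgeR 4.0.16 in R 4.3.3 across all genes: filterByExpr (minimum count 10, minimum total 15; 18033 genes kept), TMM factors, robust quasi-likelihood test of KO against control, no covariate, 6 residual degrees of freedom, Benjamini-Hochberg adjustment. The fit was also run on simulated counts in which few genes were changed, with signs drawn at random. Changes as broad as those called here were not simulated, so that run does not test the scaling under them. Levels are CPM, or RPKM over merged exons, with SD over 4 libraries. The 95% intervals are the SE times the t quantile on 6 degrees of freedom. A count of 3 equals 0.0744 to 0.0885 CPM. Alternatives used limma 3.58.1 and DESeq2 1.42.0. Nothing in the labels says that each sample came from its own mouse. The p-values cover the spread among these samples, which may in part be technical. That spread exceeded counting noise, at 12.4 to 31.8 chi-square per degree of freedom for pairs of libraries within a group. Each group also held libraries with and without Ddx3y. The technical part of the spread was not tested.

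The members and lists were chosen with earlier results of these data known. Named genes were the 9 members and Chd4, up to 4 genes with the smallest p of each of 5 pathway lists, the 3 nearest profiles of 2 members, overlapping genes and cell type markers; further list members were named after their values were seen.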

Additional observations from a re-analysis of the deposited data

Results flagged for a closer look

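Among 74 groups of 4 libraries (37 genes in KO and in control), 5 held a library far from the other 3 of its group by Dixon's test, of which chance flags about 1 in 20. Trpc6 stood at 0.459 CPM in control 3 against 0.255 to 0.277 CPM in the other controls, on 18 counts. Mcoln1 was at 26.5 CPM in KO 1 (others 29.5 to 30.1) and at 39.8 CPM in control 2 (others 35.0 to 35.6), which leaves the groups apart. Cabin1 was at 67.4 CPM in KO 4 (others 61.0 to 61.7). Ppp3ca was at 158.6 CPM in KO 2 (others 152 to 153).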

How the results depend on the processing

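Fold changes of 37 of the named genes were followed across 19 alternatives. These were the 9 members, Chd4, Ctu2, up to 4 genes of each pathway list and the nearest profiles. Other named genes, among them Itpr1, Plcb1, Homer2, Mdfic, Mdfi, Abcc9, Lrrc8b and the markers, were not followed. Of 698 recomputed fold changes, 668 kept their direction and their side of the threshold, 18 lost and 8 gained a call, and 4 changed sign. None of these 4 was of a called gene: Trpm7 (0.0122, library total), Trpv4 (-0.0073, limma-voom, and -0.0578 to 0.1994 without a library in turn, lowest without KO 1) and Trpc6 (-0.0913 to 0.4835, lowest without KO 4). The members called higher numbered 2, and 1 against controls 1 and 2, against controls 3 and 4 or among the 5 libraries with Ddx3y (an alternative chosen after seeing the data); those called lower numbered 2, and 1 in the latter pair of settings. The cause was not tested. Without a library in turn, 1 to 3 were higher and 2 lower. Genes called higher numbered 2677, and 1700 against controls 3 and 4; among the libraries with Ddx3y, 1547 were higher and 1464 lower. Scaling by library total called 70.1% of called genes higher (main 53.2%) and moved the median of all genes from 0.01 to 0.09. With a replicate block the members' calls were as in the main fit, with 2474 genes higher and 2283 lower. Deviations from the group means correlated at -0.02, 0.30, -0.06 and 0.10 between same-numbered libraries. The 0.30, for KO 2 and control 2, was the highest of all pairs of a KO and a control library. Whether same-numbered libraries share a batch was not tested. Trpc6 was not tested at a mean of at least 1 CPM. Trpc6 held 5 to 22 counts per library, and its interval was the widest of the 9 genes.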
